A study of Mus musculus with 36 samples.

Results

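The 10 genes *Adipoq*, *Lep*, *Cfd*, *Retn*, *Plin1*, *Cidec*, *Lpl*, *Fabp4*, *Pparg* and *Car3*, all known from adipocytes, were followed in the tibiae of progeria mice. Their rows were taken by symbol and not by level, although the list was chosen with earlier results of these data known. Each of the 10 symbols matched 1 row of the 56246 genes in the table of RNA levels. RNA was sequenced from the tibia of 12 wild-type mice (WT, non-treated), 12 *LMNA* G/G mice given saline and 12 *LMNA* G/G mice given ABE, with 6 males and 6 females in each group. *LMNA* G/G mice (LMNAG608G/G608G in the labels) carry a double copy of a human BAC transgene with the progeria mutation, and WT mice carry none. ABE stands for adenine base editor, here an enzyme directed at the mutant base of the transgene and carried in parts by a pair of AAV9 vectors. Saline or ABE was injected behind the eye at P14, 14 days after birth, and all mice were 6 months old. According to the paper, epiphyses and marrow were removed from the tibiae, which left mostly cortical bone. Genes of muscle and of blood cells were also measured in these samples, as given further on.

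Adipocytes of bone arise from mesenchymal stromal cells that can also form osteoblasts. The nuclear receptor PPARγ and the C/EBP factors drive their differentiation, and the mature cell stores triglyceride in a large lipid droplet and secretes adipokines. The list is not exclusive to fat cells. Stromal cells of the marrow that make *Lepr* and *Cxcl12* are known to make *Adipoq*, capillary endothelium makes *Fabp4*, and muscle makes *Lpl* and *Car3*.

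Levels are given as scaled TPM, which are reads per kilobase relative to the library, divided by a factor that makes the typical gene equal between libraries. Libraries held between 48064068 and 116206662 reads on genes, and no library was at 0 for any of the 10 genes. The size factor ran from 0.219, in the ABE-treated female numbered replicate 1, to 1.57. WT mice carry their own series of animal numbers, so any difference in handling between WT and *LMNA* G/G mice cannot be told apart from genotype. RNA of whole bone also cannot separate fewer cells of a type from less RNA per cell. Labelled bone markers were present, and the summed level of 6 osteoblast genes was between 405 and 2369 scaled TPM in all 36 libraries. The 4 osteocyte genes *Dmp1*, *Mepe*, *Phex* and *Sost* summed to between 9.87 and 47.7 scaled TPM in WT and between 169 and 488 in both *LMNA* G/G groups.

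Promoters of *Lep*, *Plin1*, *Cidec* and *Adipoq* are shown because these 4 genes separate the patterns described further on. RefSeq on GRCm38.p6 gave promoters, from 250 bases before to 50 after the transcription start, for 7 of the 10 genes and none for *Fabp4*, *Lpl* or *Car3*. Both strands were searched for TTGCNNAA, letters of the kind bound by C/EBP factors, for the TATA box letters TATAAA, for AGGTCA, letters recognised by nuclear receptors, and for the E-box CACGTG. Capitals mark matches, and in these 4 windows all were TTGCNNAA.
*Lep*, chr6:29059971-29060270, plus strand: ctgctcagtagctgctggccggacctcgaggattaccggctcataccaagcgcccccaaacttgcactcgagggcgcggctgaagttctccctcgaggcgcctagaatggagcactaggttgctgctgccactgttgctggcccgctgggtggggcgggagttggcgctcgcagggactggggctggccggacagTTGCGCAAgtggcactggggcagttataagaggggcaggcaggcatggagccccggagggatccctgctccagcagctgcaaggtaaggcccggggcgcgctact
*Plin1*, chr7:79732727-79733026, minus strand: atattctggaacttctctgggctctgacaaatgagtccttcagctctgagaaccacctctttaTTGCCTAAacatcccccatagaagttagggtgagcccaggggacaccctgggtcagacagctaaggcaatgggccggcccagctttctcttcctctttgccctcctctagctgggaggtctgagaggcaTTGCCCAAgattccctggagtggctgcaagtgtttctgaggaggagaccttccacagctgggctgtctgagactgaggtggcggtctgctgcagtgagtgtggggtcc
*Cidec*, the downstream of 2 starts, chr6:113434715-113435014, minus strand: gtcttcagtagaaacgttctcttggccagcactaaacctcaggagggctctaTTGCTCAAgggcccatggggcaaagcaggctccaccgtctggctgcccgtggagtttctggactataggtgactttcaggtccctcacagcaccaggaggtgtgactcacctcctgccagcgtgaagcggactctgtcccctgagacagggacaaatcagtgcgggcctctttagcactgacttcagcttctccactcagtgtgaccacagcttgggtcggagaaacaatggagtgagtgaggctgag
*Adipoq*, chr16:23146286-23146585, plus strand: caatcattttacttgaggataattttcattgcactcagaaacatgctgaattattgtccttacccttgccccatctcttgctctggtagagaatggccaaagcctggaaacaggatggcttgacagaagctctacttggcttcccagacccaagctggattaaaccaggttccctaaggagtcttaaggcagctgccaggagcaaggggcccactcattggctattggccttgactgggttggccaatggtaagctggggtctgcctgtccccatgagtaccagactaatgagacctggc
TTGCNNAA stood at -55 to -48 from the start of *Lep*, at -187 to -180 and -58 to -51 in *Plin1*, and at -198 to -191 in *Cidec*. The *Adipoq* window held none, and neither did those of the upstream *Cidec* start, *Cfd* and *Retn*, which held none of the 4 motifs. Of 3 *Pparg* windows 2 held AGGTCA, 1 of these also held TATAAA, and the other held TTGCNNAA in 2 places. Of all 32544 promoters of this length 10.82% held the letters. TATAAA was held by 13.57%, AGGTCA by 16.25% and CACGTG by 7.166% of them. No binding was measured here, so these matches are letters in a window.

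The RNA of leptin, the hormone that signals the size of fat stores, had the lowest level of the 10 genes and stood lower in both *LMNA* G/G groups than in WT. *Lep* (ENSMUSG00000059201.12, chromosome 6, 29060220 to 29073877 on GRCm38) ran from 0.107 to 0.634 scaled TPM in WT (median 0.291), from 0.00709 to 0.170 in saline-treated mice (median 0.0350) and from 0.00373 to 0.153 in ABE-treated mice (median 0.0178). These levels rest on 79 to 516 reads in WT, 5 to 170 in saline-treated and 3 to 88 in ABE-treated libraries. All 12 saline-treated and all 12 ABE-treated libraries lay below the WT median, and 10 and 11 of them lay below every WT library. *Lep* and *Retn* had a mean under 0.5 deposited TPM and were tested only without that filter. In that fit over 43628 genes *Lep* fell by 0.53 ± 0.072 (SE) on the log2 scale in saline-treated mice (limma adjusted p = 6.2e-07) and by 0.58 ± 0.072 in ABE-treated mice (adjusted p = 6.1e-08) against WT. The 0.5 added before the logarithm compresses these values. A fit on recovered reads, chosen after the data had been seen, gave falls of 2.62 ± 0.37 and 3.52 ± 0.43 on the log2 scale for *Lep*. Of all genes tested without a filter, 16.1% were lower in saline-treated mice and 22.3% in ABE-treated mice than in WT. ABE-treated and saline-treated mice did not differ past the threshold in *Lep* (log2 difference -0.055, adjusted p = 0.66, and -0.91, adjusted p = 0.17, on recovered reads).

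The RNA of adiponectin, an insulin-sensitizing adipokine, was lower in ABE-treated than in saline-treated mice and passed the test against WT in neither group. *Adipoq* (ENSMUSG00000022878.5, chromosome 16, 23146536 to 23158028) ran from 4.44 to 15.0 scaled TPM in WT (median 8.72), from 6.27 to 21.2 in saline-treated mice (median 9.24) and from 3.15 to 13.2 in ABE-treated mice (median 6.13). Means were 8.71 ± 3.17 (SD, n = 12), 11.7 ± 5.29 and 6.57 ± 3.36 scaled TPM. The 3 ranges overlapped, with 3 saline-treated libraries above every WT library and 6 ABE-treated libraries below every saline-treated one. *Adipoq* fell by 0.82 ± 0.23 (SE) on the log2 scale in ABE-treated against saline-treated mice (adjusted p = 0.0049). Against WT it passed in neither group, at 0.38 ± 0.23 in saline-treated (adjusted p = 0.16) and -0.44 ± 0.23 in ABE-treated mice (adjusted p = 0.085). The latter passed with *Adipoq* measured as deposited TPM (-0.96, adjusted p = 0.0037) or as TPM rescaled without very short genes (-0.65, adjusted p = 0.021), and without ABE-treated replicate 2 (-0.53, adjusted p = 0.036) or 3 (-0.52, adjusted p = 0.046).

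The RNAs of adipsin, the complement factor D that fat cells secrete, and of resistin were lowest in ABE-treated mice. *Cfd* (ENSMUSG00000061780.6, chromosome 10, 79890853 to 79892655) ran from 9.36 to 79.2 scaled TPM in WT (median 34.2), from 3.29 to 59.8 in saline-treated mice (median 28.0) and from 2.65 to 22.2 in ABE-treated mice (median 7.0). Every ABE-treated library lay below the medians of both other groups. *Cfd* fell by 1.84 ± 0.43 (SE) on the log2 scale in ABE-treated mice against WT (adjusted p = 3.5e-04) and by 1.23 ± 0.43 against saline-treated mice (adjusted p = 0.020). In saline-treated mice against WT the difference in *Cfd* was -0.61 ± 0.43 (adjusted p = 0.24).

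*Retn* (ENSMUSG00000012705.16, chromosome 8, 3655770 to 3660110) encodes resistin, an adipokine of the mouse fat cell. Its level ran from 0.179 to 0.745 scaled TPM in WT (median 0.369), from 0.0980 to 0.576 in saline-treated mice (median 0.366) and from 0.0383 to 0.196 in ABE-treated mice (median 0.0852). ABE-treated libraries held 9 to 67 *Retn* reads, and 11 of the 12 lay below every WT library. Without the filter *Retn* fell by 0.60 ± 0.099 (SE) in ABE-treated mice against WT (adjusted p = 5.9e-06) and by 0.45 ± 0.099 against saline-treated mice (adjusted p = 0.0022), where 10.8% of genes were lower. On recovered reads these falls of *Retn* were 2.08 ± 0.33 and 1.69 ± 0.34. Saline-treated mice and WT did not differ past the threshold in *Retn* (-0.16 ± 0.099, adjusted p = 0.26).

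**Figure D1:**
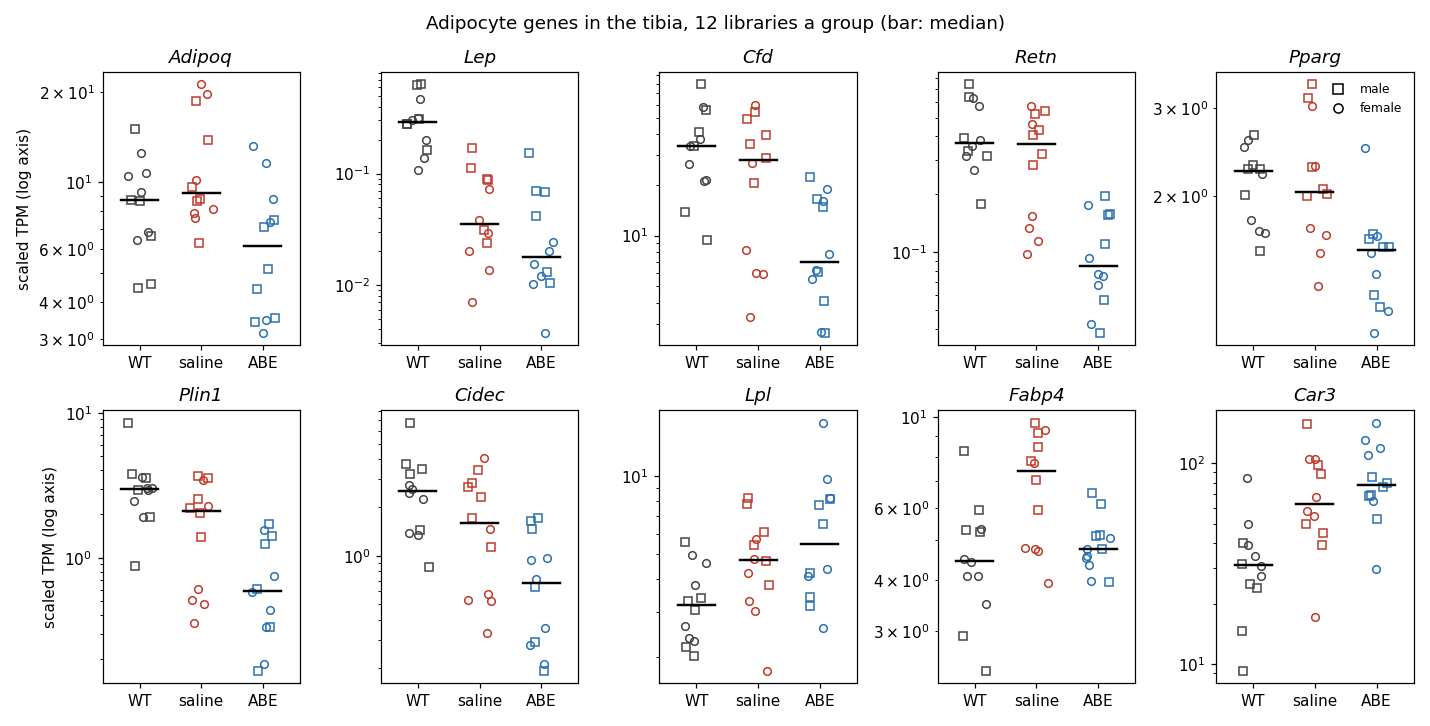
Level of each of the 10 adipocyte genes in scaled TPM on a log axis, by group, with 1 point per library (squares, males; circles, females) and a bar at the median of 12. Lep is low in both LMNA G/G groups, Cfd, Retn, Plin1 and Cidec are lowest in ABE-treated mice, and Car3 is higher in both LMNA G/G groups than in WT.

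Both genes of the lipid droplet were lower in ABE-treated mice than in WT and than in saline-treated mice. Perilipin 1 coats the droplet of fat cells and controls lipolysis. *Plin1* (ENSMUSG00000030546.14, chromosome 7, 79720218 to 79732903) ran from 0.882 to 8.55 scaled TPM in WT (median 2.97), from 0.353 to 3.64 in saline-treated mice (median 2.11) and from 0.166 to 1.71 in ABE-treated mice (median 0.592). All 12 ABE-treated libraries lay below both other medians, and 4 saline-treated libraries, all females, lay below every WT library. *Plin1* fell by 0.70 ± 0.27 (SE) on the log2 scale in saline-treated mice against WT (adjusted p = 0.033), by 1.53 ± 0.27 in ABE-treated mice against WT (adjusted p = 1.0e-05) and by 0.83 ± 0.27 in ABE-treated against saline-treated mice (adjusted p = 0.014). The first of these calls of *Plin1* was narrow and was lost without any 1 of WT replicates 6 and 10 or saline-treated replicates 1, 2, 4, 6 and 12, with adjusted p between 0.051 and 0.067. It was also lost in males alone (-0.24, adjusted p = 0.62) and without the filter on low values (adjusted p = 0.055).

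CIDEC joins lipid droplets into a single large one. *Cidec* (ENSMUSG00000030278.11, chromosome 6, 113424634 to 113435760) ran from 0.849 to 6.75 scaled TPM in WT (median 2.53), from 0.329 to 4.05 in saline-treated mice (median 1.59) and from 0.191 to 1.71 in ABE-treated mice (median 0.674). The low saline-treated libraries were again 4 females, and every ABE-treated library lay below the WT median. *Cidec* fell by 1.3 ± 0.27 (SE) on the log2 scale in ABE-treated mice against WT (adjusted p = 7.5e-05) and by 0.75 ± 0.27 against saline-treated mice (adjusted p = 0.022). The latter missed the threshold without saline-treated replicate 3, which had the highest *Cidec* of its group (-0.61, adjusted p = 0.0502). Saline-treated mice differed from WT by -0.55 ± 0.27 in *Cidec* (adjusted p = 0.084), and this passed without WT replicate 11 (adjusted p = 0.029) or saline-treated replicate 3 (adjusted p = 0.024).

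*Lpl* and *Fabp4*, the genes of fatty acid uptake and transport among the 10, were not lower in *LMNA* G/G mice than in WT past the threshold. Lipoprotein lipase, made by *Lpl* (ENSMUSG00000015568.16, chromosome 8, 68880491 to 68907448), releases fatty acids from lipoproteins at the vessel wall. *Lpl* ran from 2.03 to 5.60 scaled TPM in WT (median 3.18), from 1.77 to 8.23 in saline-treated mice (median 4.74) and from 2.6 to 16.1 in ABE-treated mice (median 5.48). In both *LMNA* G/G groups 10 of 12 libraries lay above the WT median. *Lpl* was higher by 0.76 ± 0.23 (SE) on the log2 scale in ABE-treated mice than in WT (adjusted p = 0.0047), and the saline-treated difference of 0.46 ± 0.23 did not pass (adjusted p = 0.098). The saline-treated difference passed without saline-treated replicate 4 (0.56, adjusted p = 0.036), and the ABE-treated one of *Lpl* was lost on deposited TPM (0.24, adjusted p = 0.36). ABE-treated and saline-treated mice differed by 0.30 in *Lpl*, with a 95% interval from -0.18 to 0.77.

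FABP4 carries fatty acids inside adipocytes and endothelial cells. *Fabp4* (ENSMUSG00000062515.3, chromosome 3, 10204088 to 10208576) ran from 2.4 to 8.27 scaled TPM in WT (median 4.47), from 3.93 to 9.71 in saline-treated mice (median 7.38) and from 3.95 to 6.53 in ABE-treated mice (median 4.75). Saline-treated mice stood highest, and all 12 ABE-treated libraries lay below the saline-treated median. *Fabp4* was higher by 0.53 ± 0.14 (SE) on the log2 scale in saline-treated mice than in WT (adjusted p = 0.0019) and fell by 0.42 ± 0.14 in ABE-treated against saline-treated mice (adjusted p = 0.014). Between ABE-treated mice and WT the difference was 0.11 ± 0.14 (adjusted p = 0.49). The rise of *Fabp4* in saline-treated mice was lost on deposited TPM (0.36, adjusted p = 0.14), on TPM rescaled without very short genes (0.34, adjusted p = 0.058) and in females alone (0.35, adjusted p = 0.14).

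The RNA of PPARγ, the regulator of adipocyte differentiation, was lower in ABE-treated mice than in both other groups. *Pparg* (ENSMUSG00000000440.12, chromosome 6, 115360951 to 115490399) ran from 1.56 to 2.65 scaled TPM in WT (median 2.24), from 1.33 to 3.34 in saline-treated mice (median 2.04) and from 1.07 to 2.49 in ABE-treated mice (median 1.57). Against either median, 11 of the 12 ABE-treated libraries lay below. *Pparg* fell by 0.38 ± 0.11 (SE) on the log2 scale in ABE-treated mice against WT (adjusted p = 0.0022) and by 0.40 ± 0.11 against saline-treated mice (adjusted p = 0.0040). Saline-treated mice and WT differed by 0.017 in *Pparg*, with a 95% interval from -0.20 to 0.24.

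The RNA of carbonic anhydrase III, an abundant enzyme of fat cells and of slow muscle fibers, was higher in both *LMNA* G/G groups than in WT. *Car3* (ENSMUSG00000027559.5, chromosome 3, 14863512 to 14872523) ran from 9.24 to 84.1 scaled TPM in WT (median 31.2), from 17.1 to 156 in saline-treated mice (median 62.9) and from 29.7 to 159 in ABE-treated mice (median 77.8). In each *LMNA* G/G group 11 of 12 libraries lay above the WT median. *Car3* was higher by 1.09 ± 0.30 (SE) on the log2 scale in saline-treated mice (adjusted p = 0.0031) and by 1.40 ± 0.30 in ABE-treated mice (adjusted p = 1.2e-04) than in WT. In females alone the saline-treated difference of *Car3* was 0.51 and did not pass (adjusted p = 0.47), and in males it was 1.67 (adjusted p = 0.0010). ABE-treated and saline-treated mice differed by 0.31, with a 95% interval from -0.30 to 0.93.

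Counted over the 8 genes that passed the filter, saline-treated mice against WT had 2 higher (*Fabp4*, *Car3*) and 1 lower (*Plin1*). In all 16123 genes tested, 27.5% were higher and 24.9% lower in this comparison. ABE-treated mice against WT had 2 higher (*Lpl*, *Car3*) and 4 lower (*Plin1*, *Cidec*, *Cfd*, *Pparg*), against 34.6% and 35.5% of all genes. ABE-treated against saline-treated mice had 0 higher and 6 lower (*Adipoq*, *Plin1*, *Fabp4*, *Cfd*, *Cidec*, *Pparg*), against 22.9% and 25.1% of all genes. Median log2 differences of the 8 genes were 0.20, -0.41 and -0.58 in the same order, and those of all genes were 0.015, -0.024 and -0.018. Both *LMNA* G/G groups were set against the same WT mice, so the first 2 comparisons share their controls. The count of 6 lower and 0 higher in ABE-treated against saline-treated mice was the same on deposited TPM, on TPM rescaled without very short genes and after quantile normalization. It was 3 lower of 4 tested with a filter at 5 TPM, 4 in males alone, and 0 in females alone and with skeletal muscle markers as a covariate. For none of the 10 genes did 2 groups separate without overlap, which 6.66%, 8.64% and 0.0310% of all genes did in the 3 comparisons.

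**Figure D2:**
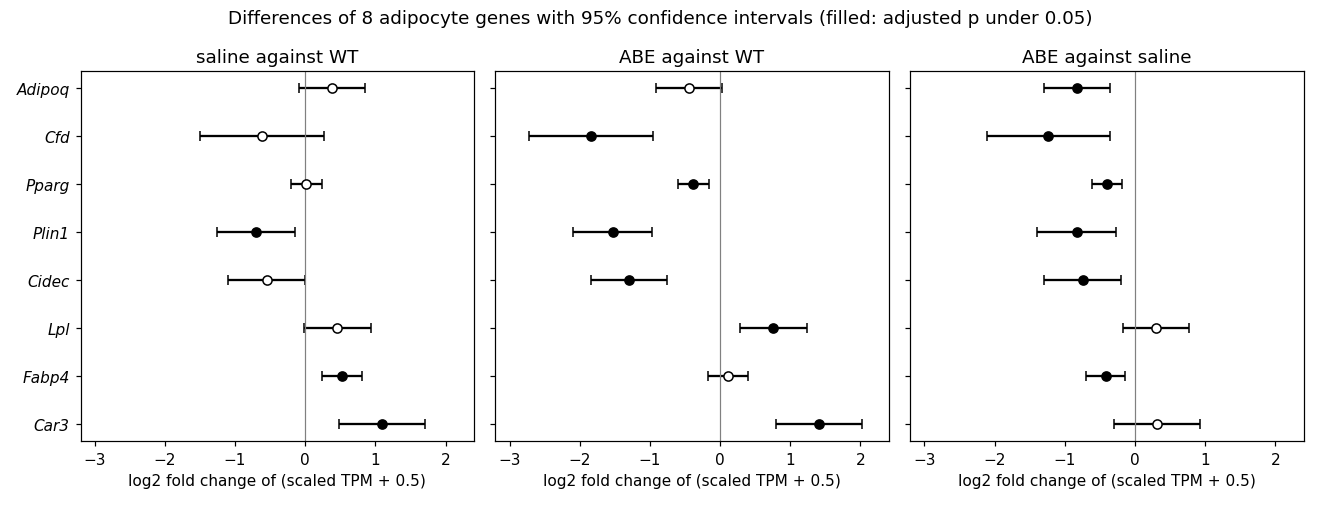
Log2 difference of scaled TPM + 0.5 between groups for the 8 adipocyte genes that passed the filter on low values, with 95% confidence intervals from limma over 36 libraries (filled points, adjusted p under 0.05). In ABE-treated against saline-treated mice 6 of the 8 genes are lower, and Lpl and Car3 have intervals that span 0.

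Sex was balanced and was a covariate in these fits, and in *Plin1*, *Cfd*, *Retn* and *Cidec* the saline-treated females had the highest coefficient of variation of the 6 sets. Their *Plin1* ran from 0.353 to 3.43 scaled TPM (median 0.563), against 1.39 to 3.64 (median 2.38) in saline-treated males. *Cfd* ran from 3.29 to 59.8 scaled TPM (median 7.13) in saline-treated females and from 20.6 to 53.9 (median 37.4) in males. *Retn* ran from 0.0980 to 0.576 scaled TPM (median 0.144) in these females and from 0.283 to 0.541 (median 0.419) in males. In each of these genes 4 saline-treated females, replicates 1, 2, 4 and 6, lay below every saline-treated male, and replicates 3 and 5 lay within or above the males. None of the 8 genes differed between the sexes in its response past the threshold. The lowest adjusted p of these interaction tests was 0.22 for saline against WT, 0.65 for ABE against WT and 0.33 for ABE against saline, where 1.05%, 3.65% and 0.0558% of all genes passed. Contrasts within 1 sex, with 6 mice a group, passed for 4 of the 8 genes in males and 0 in females for ABE against saline, where 14.7% and 40.9% of all genes passed. In males *Plin1* fell by 1.20 on the log2 scale (limma adjusted p = 0.034) and *Pparg* by 0.56 (adjusted p = 0.014), and in females the differences were -0.47 (adjusted p = 0.34) and -0.24 (adjusted p = 0.21). The test of that difference between the sexes did not pass, so no sex difference is shown.

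Across the 36 libraries, after the means of each group and sex were removed, the 10 genes did not vary as 1 set. These correlations are descriptions over 36 libraries that share scaling and tissue, with no test. *Plin1* and *Cidec* had a Pearson r of 0.95, *Cfd* and *Cidec* of 0.94, *Plin1* and *Cfd* of 0.93, and *Plin1* and *Retn* of 0.86. *Fabp4* followed *Plin1* at 0.82. *Adipoq* stood closest to *Pparg*, at 0.85, and its r was 0.73 with *Plin1* and 0.21 with *Lep*. *Lep* had an r of 0.56 with *Plin1*, its closest partner. The 0.5 added before the logarithm flattens *Lep* in the *LMNA* G/G groups, where it was between 0.00373 and 0.170 scaled TPM. Each r of *Lep* here and below therefore rests mostly on the 12 WT libraries and says little of the *LMNA* G/G ones. *Car3* and *Adipoq* had an r of -0.11, and *Lpl* had no r above 0.52 with any of the other genes.

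**Figure D3:**
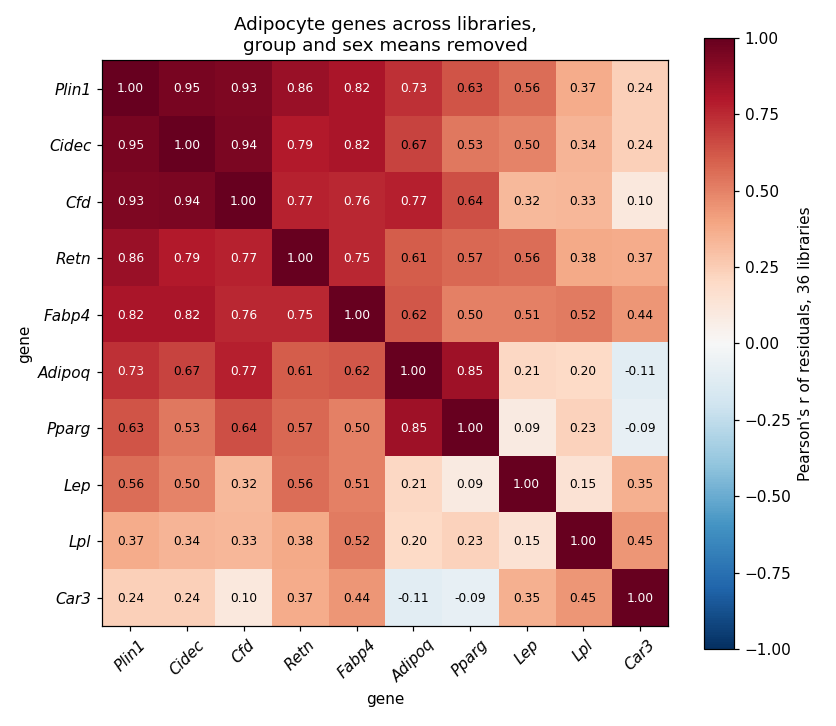
Pearson's r between the 10 adipocyte genes over 36 libraries, on log2 levels with the mean of each group and sex removed. Plin1, Cidec, Cfd, Retn and Fabp4 form a block with r of 0.75 or more, Adipoq pairs with Pparg, and Lep, Lpl and Car3 stand apart.

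The gene outside the list with residuals most like *Adipoq*, among genes with a mean of at least 1 scaled TPM, was *Cebpa* (r = 0.89), a C/EBP factor of adipocyte differentiation. *Trf* (0.89), *Cxcl12* (0.88), *Lepr* (0.87), *Esm1* (0.84), *C4b* (0.84), *Dpep1* (0.83), *Apoe* (0.83), *Kng2* (0.83) and *Hsd17b12* (0.82) came next. *Cxcl12*, *Lepr* and *Esm1* belong to the list of 11 marrow stromal genes. The mean of that list had an r of 0.88 with *Adipoq*, 0.80 with *Pparg*, 0.48 with *Plin1* and 0.037 with *Lep*. Of these 11 stromal genes 5 were higher and 0 lower in saline-treated mice than in WT, and 0 were higher and 5 lower in ABE-treated than in saline-treated mice. Of all genes 27.5% and 24.9% were higher and lower in the first of these comparisons and 22.9% and 25.1% in the second. On deposited TPM the counts were 2 and 0 (6.44% and 23.0% of all genes), and 0 and 9 (3.29% and 40.8%), and with the muscle covariate described further on 0 of the 11 passed between the treatments. Their summed level was between 75.2 and 172 scaled TPM in WT, 96.6 and 226 in saline-treated mice and 40.7 and 147 in ABE-treated mice. The part of stromal cells or macrophages in the *Adipoq* result was not tested.

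**Figure D4:**
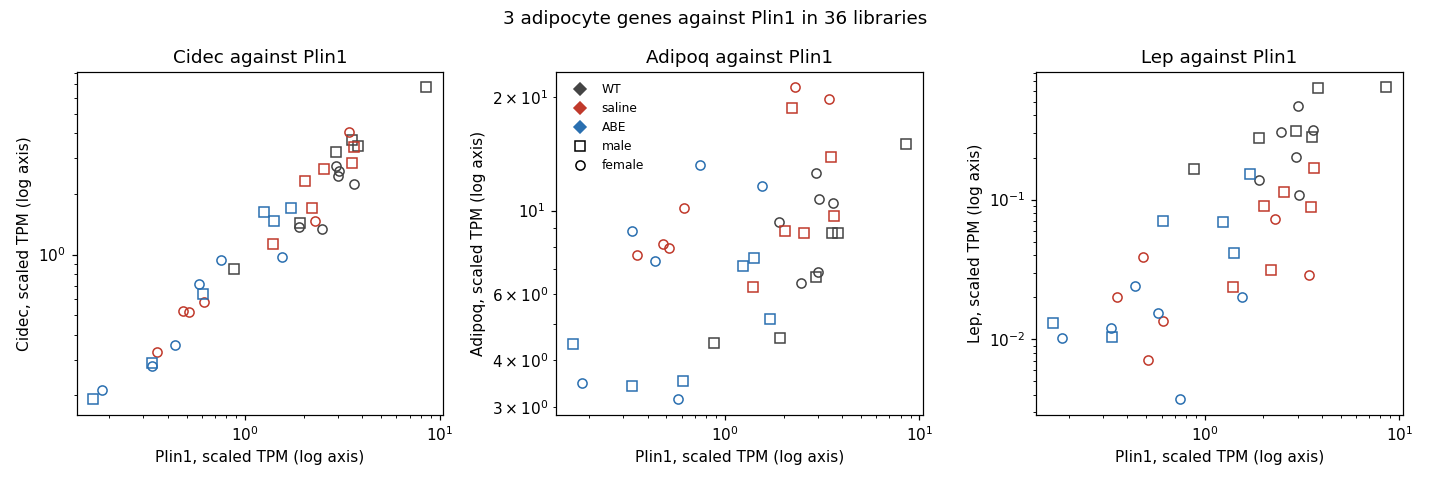
Scaled TPM of Cidec, Adipoq and Lep against Plin1 in 36 libraries, on log axes (squares, males; circles, females). Cidec rises with Plin1 in all 3 groups, and the ratio of Adipoq to Plin1 has a lower median in WT (2.53) than in saline-treated (7.14) and ABE-treated mice (8.92).

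Relative to *Plin1* in the same library, a description chosen after the data had been seen, *Cidec* kept a narrow range. The ratio of *Cidec* to *Plin1* had a median of 0.839 in WT, 0.941 in saline-treated mice and 1.04 in ABE-treated mice. The ratio of *Adipoq* to *Plin1* ran from 1.76 to 5.03 in WT (median 2.53), from 2.66 to 21.6 in saline-treated mice (median 7.14) and from 3.004 to 26.7 in ABE-treated mice (median 8.92). That of *Lep* to *Plin1* had medians of 0.0965, 0.0284 and 0.0459. By these medians the WT libraries held more *Lep* and less *Adipoq* for each unit of *Plin1*, with ranges that overlapped.

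Skeletal muscle RNA moved with the groups. The 25 muscle genes summed to between 270 and 4001 scaled TPM in WT, 450 and 10332 in saline-treated mice and 1458 and 17089 in ABE-treated mice, and none was at 0. Of the 25, 19 were higher in saline-treated mice than in WT, 25 in ABE-treated mice than in WT and 22 in ABE-treated than in saline-treated mice, and 0 were lower in any. Of all genes 27.5%, 34.6% and 22.9% were higher in the same order. On deposited TPM the muscle counts were 11, 24 and 8, against 6.44%, 9.12% and 3.29% of all genes. *Acta1*, the actin of skeletal muscle, had means of 311 ± 211, 826 ± 576 and 1743 ± 897 scaled TPM. Over the 36 libraries with group and sex means removed, the muscle list had an r of 0.82 with *Car3*, 0.52 with *Lpl*, -0.33 with *Adipoq* and 0.037 with *Plin1*. With the muscle list as a covariate, *Car3* differed between ABE-treated mice and WT by -0.13 (adjusted p = 0.71) and *Lpl* by 0.0096 (adjusted p = 0.98). The rise of *Car3* in saline-treated mice became 0.41 (adjusted p = 0.067). *Plin1*, *Cfd* and *Cidec* stayed lower in ABE-treated mice than in WT with this covariate.

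In ABE-treated against saline-treated mice none of the 8 genes passed with the muscle covariate, where 449 of all genes passed in place of 7738. The differences were then -0.60 for *Adipoq* (adjusted p = 0.18), -0.97 for *Plin1* (0.087), -0.53 for *Fabp4* (0.065), -1.27 for *Cfd* (0.15), -0.82 for *Cidec* (0.13) and -0.32 for *Pparg* (0.13). All 6 remained negative, and 4 were larger in size than without the covariate. Muscle level and treatment moved together, so their parts in these differences cannot be told apart.

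**Figure D5:**
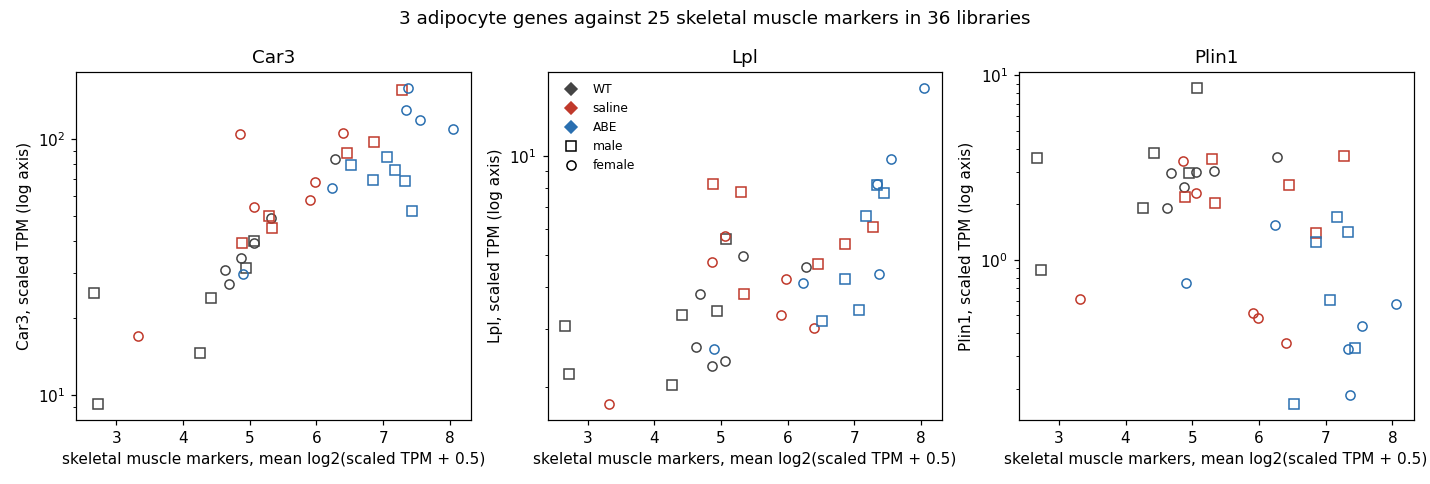
Scaled TPM of Car3, Lpl and Plin1 on a log axis against the mean log2 level of 25 skeletal muscle genes in 36 libraries (squares, males; circles, females). With group and sex means removed, Pearson's r with the muscle genes is 0.82 for Car3, 0.52 for Lpl and 0.037 for Plin1.

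Markers of other cells also differed between groups, to be read against the shares of all genes, 25.1% lower and 22.9% higher in ABE-treated against saline-treated mice, 35.5% lower in ABE-treated mice against WT and 24.9% lower in saline-treated mice against WT. Of 10 macrophage genes 7 were lower in ABE-treated mice than in saline-treated mice and 7 than in WT, with a summed level of 181 to 356 scaled TPM in WT, 159 to 393 in saline-treated mice and 74.0 to 344 in ABE-treated mice. Of 8 neutrophil genes 7 and of 4 erythroid genes 4 were lower in ABE-treated than in saline-treated mice. The 8 neutrophil genes summed to 754 to 2461 scaled TPM in WT. In saline-treated mice they summed to 1015 to 3651, and in ABE-treated mice to 344 to 3922. The 5 erythroid genes of the list, 4 of them tested, summed to 102 to 301, 85.7 to 301 and 21.0 to 223 in the same order. Endothelial genes, 12 in the list, had 6 higher and 0 lower in that comparison, and 0 higher and 1 lower on deposited TPM. Of 6 B cell genes 5 were lower in saline-treated mice and 6 in ABE-treated mice than in WT. With the muscle covariate 0 of the macrophage, neutrophil, erythroid, endothelial and B cell genes passed in ABE-treated against saline-treated mice, where 1.96% of all genes were higher and 0.825% lower. Keratinocyte genes summed to at most 0.166 scaled TPM. The part of these cells in the results on the adipocyte genes was not tested.

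Of 11 brown or beige adipocyte genes 3 passed the filter on low values. *Ucp1*, the uncoupling protein of brown fat, had means of 0.0073 scaled TPM in WT, 0.0054 in saline-treated mice and 0.0033 in ABE-treated mice. *Cidea*, of the same family as *Cidec*, had means of 0.0563, 0.143 and 0.184 scaled TPM. The 3 that passed, *Cox8b*, *Cox7a1* and *Ppargc1a*, are genes of oxidative muscle as well, and all 3 were higher in ABE-treated mice than in both other groups. Of all genes 34.6% were higher than in WT and 22.9% than in saline-treated mice. With the muscle covariate none of the 3 passed in ABE-treated against saline-treated mice. Against WT, 1 of the 3 was then still higher in ABE-treated mice and 1 lower in saline-treated mice. Of 16123 genes 2620 and 3449 were so.

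Other genes of the same families are set beside the adipocyte genes here. *Plin4* and *Plin5*, perilipins also found in muscle, were higher by 0.92 ± 0.28 (SE, adjusted p = 0.0042) and 0.86 ± 0.15 (adjusted p = 6.0e-06) on the log2 scale in ABE-treated mice than in WT, while *Plin1* was lower. With the muscle covariate *Plin4* was at -0.27 (adjusted p = 0.52) and *Plin5* at 0.24 (adjusted p = 0.26), and on deposited TPM *Plin4* did not pass (0.39, adjusted p = 0.18). *Plin2*, of the droplets of many cells, fell by 0.26 ± 0.091 in ABE-treated against saline-treated mice (adjusted p = 0.018), and did not pass there with the muscle covariate. *Plin3* was higher by 0.33 ± 0.058 in saline-treated mice than in WT (adjusted p = 2.0e-05) and by 0.37 ± 0.058 in ABE-treated mice (adjusted p = 1.4e-06), though on deposited TPM *Plin3* was at 0.17 and -0.10 and passed in neither.

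*Fabp3*, of heart and muscle, had means of 7.43 ± 5.37, 15.4 ± 8.13 and 42.0 ± 22.9 scaled TPM and was higher by 2.47 ± 0.43 in ABE-treated mice than in WT (adjusted p = 6.1e-06). With the muscle covariate *Fabp3* differed by 0.13 (adjusted p = 0.74). *Fabp5* was higher by 0.74 ± 0.085 in saline-treated mice than in WT (adjusted p = 1.3e-08) and fell by 0.46 ± 0.085 in ABE-treated against saline-treated mice (adjusted p = 3.6e-04), the same directions as *Fabp4*. *Car1* of red cells and *Car2* of osteoclasts and red cells fell by 1.28 ± 0.26 (adjusted p = 8.0e-04) and 0.997 ± 0.25 (adjusted p = 0.0027) in ABE-treated against saline-treated mice, where *Car3* did not pass. *Ppard* was higher by 0.35 ± 0.074 in that comparison (adjusted p = 8.6e-04), while *Pparg* was lower, although on deposited TPM *Ppard* did not pass (0.072, adjusted p = 0.57). None of *Car1*, *Car2* and *Ppard* passed between the treatments with the muscle covariate.

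Wider lists of the pathway were counted against the same background, which applies to each list below. Of all genes 27.5% were higher and 24.9% lower in saline-treated mice than in WT. The shares were 34.6% and 35.5% in ABE-treated mice against WT, and 22.9% and 25.1% in ABE-treated against saline-treated mice. Deposited TPM moved the median log2 difference of all genes to -0.13, -0.42 and -0.27 in the 3 comparisons, so list counts on that scale are given too. On deposited TPM 6.44% of all genes were higher and 23.0% lower in saline-treated mice than in WT, 9.12% and 58.7% in ABE-treated mice than in WT, and 3.29% and 40.8% in ABE-treated than in saline-treated mice. Between the treatments, with the skeletal muscle covariate, 1.96% of all genes were higher and 0.825% lower. Brakes on adipogenesis, lipid droplet and lipolysis genes, and adipokines and secreted factors then had 0 higher and 0 lower. Transcription factors had 1 higher, uptake genes 1 lower, synthesis genes 1 higher and 1 lower, and receptors and transducers 1 lower. Of 17 transcription factors of adipogenesis 15 were tested, and 5 were higher and 3 lower in saline-treated mice than in WT (27.5% and 24.9% of all genes), 8 higher and 4 lower in ABE-treated mice than in WT, and 6 higher and 4 lower in ABE-treated than in saline-treated mice. On deposited TPM these were 2 and 3, 4 and 7, and 2 and 4. *Cebpb*, an early factor, was higher by 1.15 ± 0.14 (SE) in saline-treated mice than in WT (adjusted p = 3.8e-08) and *Cebpd* by 0.40 ± 0.065 (adjusted p = 5.8e-06), the latter not passing on deposited TPM (0.23, adjusted p = 0.18). *Ebf1*, a factor of B cells and adipocyte progenitors, fell by 0.74 ± 0.096 (adjusted p = 1.5e-07). *Cebpa* fell by 0.34 ± 0.12 in saline-treated mice (adjusted p = 0.023) and by 0.83 ± 0.12 in ABE-treated mice (adjusted p = 7.7e-07) against WT, and by 0.49 ± 0.12 in ABE-treated against saline-treated mice (adjusted p = 0.0028).

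Among 10 tested brakes on adipogenesis 2 were higher and 1 lower in saline-treated mice than in WT, 7 higher and 1 lower in ABE-treated mice than in WT, and 6 higher and 0 lower in ABE-treated than in saline-treated mice. *Tsc22d3*, a glucocorticoid target, was higher by 0.89 ± 0.16 in saline-treated mice and 1.40 ± 0.16 in ABE-treated mice than in WT, with adjusted p = 2.6e-05 and 7.2e-09. The Wnt ligand *Wnt10b* was higher by 0.49 ± 0.14 (adjusted p = 0.0034) and 1.07 ± 0.14 (adjusted p = 5.5e-08), and *Gata2* fell by 0.35 ± 0.054 and 0.42 ± 0.054, with adjusted p = 2.7e-06 and 5.6e-08. *Klf2* passed only in ABE-treated against saline-treated mice, higher by 0.22 ± 0.065 (adjusted p = 0.0065), and its sign turned on deposited TPM (-0.14, adjusted p = 0.44). On that scale 1 brake was higher and 1 lower, 2 and 4, and 0 and 2 in the same order of comparisons.

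Lipid droplet and lipolysis genes, 18 tested of 21, had 6 higher and 5 lower in saline-treated mice than in WT, 8 and 7 in ABE-treated mice than in WT, and 4 and 6 in ABE-treated than in saline-treated mice, and on deposited TPM 0 and 4, 3 and 9, and 3 and 10. *Hilpda*, an inhibitor of lipolysis, was higher by 0.26 ± 0.066 in saline-treated mice than in WT (adjusted p = 0.0017), and on deposited TPM it was at 0.14 (adjusted p = 0.35). Lipoprotein and fatty acid uptake, 17 genes tested, had 8 higher and 3 lower in saline-treated mice than in WT, 11 and 1 in ABE-treated mice than in WT, and 4 and 4 between the treatments, and on deposited TPM 3 and 3, 4 and 6, and 1 and 4. *Gpihbp1*, which holds lipoprotein lipase on capillaries, had means of 0.848 ± 0.252, 1.87 ± 0.36 and 2.26 ± 0.583 scaled TPM and was higher by 0.82 ± 0.11 in saline-treated mice than in WT (adjusted p = 2.4e-07). The lipoprotein receptor *Vldlr* was higher by 1.04 ± 0.18 in saline-treated (adjusted p = 2.1e-05) and 1.45 ± 0.18 in ABE-treated mice than in WT (adjusted p = 4.5e-08). *Slc27a4*, a fatty acid transporter, passed only between the treatments and fell by 0.21 ± 0.084 in ABE-treated mice (adjusted p = 0.041).

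Of 19 genes of fatty acid and triglyceride synthesis 4 were higher and 2 lower in saline-treated mice than in WT, 7 and 7 in ABE-treated mice than in WT, and 8 and 6 between the treatments, and on deposited TPM 0 and 3, 6 and 11, and 3 and 9. *Fasn*, the fatty acid synthase, fell by 0.35 ± 0.12 in saline-treated mice (adjusted p = 0.016) and by 0.70 ± 0.12 in ABE-treated mice (adjusted p = 5.1e-06) against WT, and by 0.36 ± 0.12 in ABE-treated against saline-treated mice (adjusted p = 0.016). The desaturase *Scd2* fell by 0.42 ± 0.078 in saline-treated mice against WT (adjusted p = 4.0e-05), and *Pcx*, pyruvate carboxylase, was higher by 0.22 ± 0.074 (adjusted p = 0.014) but at 0.050 (adjusted p = 0.79) on deposited TPM. *Dgat2*, of the last step of triglyceride synthesis, was higher by 0.32 ± 0.13 in ABE-treated than in saline-treated mice (adjusted p = 0.034), and on deposited TPM was at -0.0078 (adjusted p = 0.96).

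The 12 tested adipokines and secreted factors had 5 higher and 1 lower in saline-treated mice than in WT, 6 and 3 in ABE-treated mice than in WT, and 4 and 6 between the treatments, and on deposited TPM 3 and 1, 3 and 5, and 1 and 6. *Tnf*, which inflamed fat releases, fell by 0.85 ± 0.087 (adjusted p = 1.4e-09) in saline-treated mice and 1.07 ± 0.087 (adjusted p = 9.4e-12) in ABE-treated mice against WT. Angiotensinogen, *Agt*, was higher by 0.81 ± 0.14 in saline-treated mice than in WT (adjusted p = 1.9e-05) and fell by 0.48 ± 0.14 in ABE-treated against saline-treated mice (adjusted p = 0.0077). The BMP antagonist *Chrdl1* was higher by 0.51 ± 0.11 in saline-treated mice than in WT (adjusted p = 1.7e-04) and fell by 0.42 ± 0.11 between the treatments (adjusted p = 0.0029). Neither *Agt* nor *Chrdl1* passed between the treatments with the muscle covariate.

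Of 13 receptors and transducers of adipokine and insulin signals 5 were higher and 1 lower in saline-treated mice than in WT, 8 and 1 in ABE-treated mice than in WT, and 4 and 1 between the treatments, and on deposited TPM 1 and 0, 2 and 7, and 1 and 5. *Socs3*, a feedback inhibitor that leptin induces in its target cells, had means of 2.06, 4.56 and 2.97 scaled TPM. It was higher by 0.99 ± 0.098 in saline-treated mice than in WT (adjusted p = 7.2e-10) and fell by 0.57 ± 0.098 in ABE-treated against saline-treated mice (adjusted p = 2.4e-04). *Stat3*, which carries the leptin signal, was higher by 0.32 ± 0.047 (adjusted p = 1.1e-06) and the insulin receptor substrate *Irs1* by 0.51 ± 0.12 (adjusted p = 5.5e-04) in saline-treated mice than in WT, and on deposited TPM these were 0.15 (adjusted p = 0.47) and 0.35 (adjusted p = 0.11). The leptin receptor *Lepr* had means of 3.19 ± 0.759, 3.70 ± 1.38 and 2.94 ± 0.889 scaled TPM and passed in none of the 3 comparisons, with adjusted p of 0.42, 0.51 and 0.15, though on deposited TPM it was at -0.57 in ABE-treated mice against WT (adjusted p = 0.015) and -0.55 against saline-treated mice (adjusted p = 0.030).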

How the data were processed

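Poly(A) RNA of tibiae was sequenced from stranded libraries, and the authors aligned reads to GRCm38 with STAR (2.73a in the submitters' processing notes). The deposited values are TPM, which sum to 1000000 in each of 36 libraries. Between 84.7 and 96.6% of that sum fell on genes no longer than 219 bp (very short genes), so TPM were rescaled by the median of gene ratios between libraries. TPM times gene length less 218 bases gave whole reads, within 0.01 of a read, for 100% of values. Each library is a separate mouse, and no pair of libraries was identical.

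Log2(scaled TPM + 0.5) was tested with limma 3.58.1 (R 4.3.3) over 36 libraries, with group and sex as terms, in 16123 genes with a mean of at least 0.5 deposited TPM, and Benjamini-Hochberg adjusted p under 0.05 was called. Tests are two-sided. Fold changes on this scale understate those of low genes. The fit was tested on simulated data. Sex differences came from interaction terms. Alternatives were other scalings, filters, pseudocounts, weights, covariates, 1 sex, each library left out, and limma-voom on recovered reads, which was added without the filter after seeing the data.

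The 10 genes, the lists and the tests were chosen with earlier results of these data known. From each wider list the text names the 3 genes with the lowest adjusted p in saline-treated mice against WT among those with a mean of at least 1 scaled TPM in a group, and at most 2 that passed only between the treatments. A gene selected by this rule is not reported here. It also names members of the gene families, the 10 genes most like *Adipoq*, and up to 3 abundant markers of other cells. *Cebpa*, *Ucp1* and *Lepr* were named in the lists after their values were seen. Coordinates are from GENCODE vM21 on GRCm38, and Python 3.11.15 with pandas 2.3.3 and numpy 2.4.6 was used for levels.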

Additional observations from a re-analysis of the deposited data

Results flagged for a closer look

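*Cidec* in the saline-treated female numbered replicate 3 stood apart from the other 5 saline-treated females, at 4.05 scaled TPM against 0.329 to 1.46. Its gap to the nearest of them was 0.695 of the whole range, above Dixon's critical value for 6 samples. It was the 1 case in 60 sets of 6 libraries, where chance gives about 1 in 20. No cause was tested.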

How the results depend on the processing

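Genes called in saline-treated mice against WT, 8447, became 4742 on deposited TPM, 13170 without the filter, 2111 with a filter at 5 TPM, 3344 in females and 14006 with limma-voom on recovered reads without the filter. Those in ABE-treated mice against WT, 11298, became 19138 without the filter, 2695 at 5 TPM, 4891 with the skeletal muscle covariate and 19695 with limma-voom without the filter. Those in ABE-treated against saline-treated mice, 7738, became 1834 at 5 TPM, 3238 in males, 4744 in females, 449 with the muscle covariate and 12290 with limma-voom without the filter. With 1 library left out these counts ran from 7864 to 8995, 11091 to 11525 and 6759 to 8526. Genes with a sex difference, 170, 588 and 9, became 0, 388 and 2 on deposited TPM, and the first became 279 with a pseudocount of 0.1. Of the calls 52.5%, 49.3% and 47.7% were higher, against 21.9%, 13.5% and 7.47% on deposited TPM, 21.6%, 31.1% and 50.2% on TPM rescaled without very short genes, and, between the treatments, 70.4% with the muscle covariate and 36.6% at 5 TPM.

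*Car3* in ABE-treated mice against WT turned to -0.13 with the muscle covariate, which also ended the 6 calls between the treatments, as did females alone with 6 mice a group. *Pparg* in ABE-treated mice against WT then was -0.24 (limma adjusted p = 0.24). In females alone *Lpl* (0.85, adjusted p = 0.055) and *Pparg* (-0.34, adjusted p = 0.098) missed the threshold in ABE-treated mice against WT. *Cidec* in saline-treated mice against WT passed on TPM rescaled without very short genes (-0.72, adjusted p = 0.029) and with array weights (-0.53, adjusted p = 0.049). Of 864 results of single genes with a library left out, 851 kept direction and side of the threshold. Causes were not tested. The paper calls the mice of the 3 groups littermates, but the labels do not give litters, so no analysis paired by litter was possible. *Lep* and *Retn* are limited by their few reads.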
